A study of Homo sapiens with 6 samples.

Results

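The histone demethylases, histone deacetylases and sirtuins are the enzymes that remove methyl and acyl groups from histones and other proteins. They were taken here by symbol, without regard to any measured value, as KDM1 to KDM8 with no further letter or with A, B or C, SIRT1 to SIRT7, and HDAC with any number, a rule that leaves out KDM4D and KDM4E. This rule found 34 of the 47577 loci in the deposited table: 16 KDM genes, 11 HDAC genes and 7 SIRT genes. RNA-seq had been performed on OVCAR3, an established cell line of human high-grade serous ovarian adenocarcinoma, exposed for 6 h to the solvent DMSO (3 libraries) or to 200 nM THZ531 (3 libraries). THZ531 is a covalent inhibitor of CDK12 and CDK13, kinases that phosphorylate the C-terminal domain of RNA polymerase II during elongation. The sample titles name THZ531, whereas the treatment field of the labels names THZ1 at the same dose, and the titles were followed. All libraries were made from polyA RNA of a single line without other alterations named in the labels, which do not say whether the replicates were separate cultures, so that the p-values measure only the spread between these libraries.

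Lysine demethylation runs through a pair of chemistries. KDM1A and KDM1B use flavin, while all other KDM enzymes carry a Jumonji C (JmjC) domain that uses iron, oxygen and 2-oxoglutarate. Deacetylation is likewise divided between the zinc-dependent HDAC enzymes of classes I, IIa, IIb and IV and the sirtuins, which consume NAD. Several class I HDAC proteins and KDM1A work inside corepressor complexes such as CoREST, NuRD and SIN3. Inhibitors of several of the enzymes are used or tested against tumors.

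The promoters of the genes with the extreme changes were examined for short motifs. The following windows run from 250 bases before to 50 bases after the transcription start (RefSeq, GRCh38.p14), with GC boxes (GGGCGG, or CCGCCC on the other strand) and E-boxes (CACGTG) in capitals. SIRT1 is shown because it rose most (chr10:67884406-67884705, + strand), and KDM8 because it fell most among the genes whose RefSeq window starts at the annotated main (MANE) transcript (chr16:27203276-27203575, + strand).
SIRT1 promoter: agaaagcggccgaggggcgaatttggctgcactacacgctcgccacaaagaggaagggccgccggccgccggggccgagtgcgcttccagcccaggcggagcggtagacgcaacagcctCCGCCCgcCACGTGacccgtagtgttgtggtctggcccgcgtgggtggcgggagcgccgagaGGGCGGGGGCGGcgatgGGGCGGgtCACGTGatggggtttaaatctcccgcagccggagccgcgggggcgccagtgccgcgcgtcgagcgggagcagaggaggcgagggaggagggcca
KDM8 promoter: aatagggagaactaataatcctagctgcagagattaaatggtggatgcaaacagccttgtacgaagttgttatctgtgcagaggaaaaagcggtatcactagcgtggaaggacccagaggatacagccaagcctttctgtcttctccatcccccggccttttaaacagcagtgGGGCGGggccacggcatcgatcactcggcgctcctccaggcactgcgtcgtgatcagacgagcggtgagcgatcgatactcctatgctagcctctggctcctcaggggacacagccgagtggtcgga
The SIRT1 window was 72.7% G or C and held 39 CpG dinucleotides, 4 GC boxes and 2 E-boxes, whereas the KDM8 window was 54.7% G or C with 17 CpG dinucleotides and 1 GC box. RefSeq windows were matched to 32 of the 34 genes, HDAC5 and SIRT7 being unmatched, and those of SIRT3, SIRT4 and HDAC4 start 589, 10132 and 126239 nt from the MANE start. A GC box was found in 20 of the 32 windows (62.5%, against 44.6% of all 27305 promoters), a CCAAT box (CCAAT) in 12 (37.5%, against 35.7%) and a TATA box (TATAAA) in 0, while 12.0% of all promoters hold the latter. The cAMP response element TGACGTCA was in 1 window, that of SIRT4 (1.98% of all promoters). E-boxes were in 4 windows (12.5%, against 7.43% of all promoters): those of SIRT1, KDM6A and KDM4C, which increased, and that of KDM4B, which decreased. All motifs were searched on both strands. The 27305 promoters were not limited to genes expressed in OVCAR3, whereas all 34 genes were expressed, so that the shares compare unlike sets. The motifs are matches of letters and were not tested against the expression changes.

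A second set of sequences comes from KDM4B, where loci without a symbol were counted inside introns (their values are given with the other KDM4 genes). The locus in intron 8 contains the polyadenylation hexamer AATAAA (searched on the sense strand, here in capitals with 30 bases on either side) at 2 places (hg38, chr19:5080792-5080857 and chr19:5081130-5081195, + strand).
KDM4B intron 8, first hexamer: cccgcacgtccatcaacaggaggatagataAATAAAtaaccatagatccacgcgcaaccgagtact
KDM4B intron 8, second hexamer: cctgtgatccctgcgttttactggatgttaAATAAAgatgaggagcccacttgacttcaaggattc
The second hexamer ended 22 nt before the end of the locus. Of the 61 tiles of the same length that cover KDM4B, 42.6% held at least 1 hexamer and 19.7% held at least as many as this locus. Other sense intron loci were searched the same way. That in intron 6 of KDM4B held 5 hexamers (4.92% of tiles held as many). The loci in intron 2 of KDM6A and intron 3 of HDAC5 held 2 (68.6% of tiles) and 1 (46.7%), and that in intron 4 of KDM4C held 0.

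Depth differed by treatment, with 60146046 to 70986130 reads on genes in DMSO and 53054048 to 57953296 in THZ531. Values are given as the authors' DESeq2-normalized reads. Their sums ran from 55389676 to 56639224 in DMSO and from 65875609 to 66820371 in THZ531. In bulk RNA, fewer cells of a type and less RNA per cell cannot be told apart. All 10 of the serous epithelial markers examined were detected, the keratins KRT8, KRT7 and KRT18 with group means from 114489 to 230529 normalized reads, but the lineage factor PAX8 dropped from 11272 ± 545 to 1241 ± 121 (SD, n = 3). Of 10 markers of blood, endothelial and fibroblast cells, CD3E was listed at 0 in all libraries, the means of DCN and LUM did not exceed 1.59, and 7 were tested, of which COL1A1 (995 to 2190) and VWF (89.0 to 144) rose and 0 fell. Their part in the results on the enzymes was not tested. RPL34, the ribosomal protein transcript used as reference in qPCR assays, rose by a log2 fold change of 0.49, from 12999 ± 1180 to 18247 ± 86.8, so that directions also depend on how libraries are scaled.

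THZ531 changed the enzymes in both directions (coordinates of genes and loci are hg38, as the deposited table gives them). Genes past a 1.5-fold change with p up to 0.05, before adjustment, were called (limma on log2 of the value plus 1, over all 17568 loci with at least 10 normalized reads in at least 3 libraries), and all 34 genes passed the minimum. By this rule 7 genes increased (20.6%, against 15.7% of all loci tested), 8 decreased (23.5%, against 23.9% of all) and 19 were not called. SIRT1, KDM7A, KDM3A, KDM6A, KDM1A, HDAC5 and KDM4C increased, while HDAC4, KDM8, SIRT4, HDAC9, HDAC11, SIRT3, SIRT5 and KDM4B decreased. The share of regulated genes was thus near the background in both directions. SIRT4 needed its DMSO libraries to pass the minimum, so that a decrease was in part built into its selection. The median log2 fold change was 0.11 over the 34 genes and -0.01 over all loci.

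**Figure D1:**
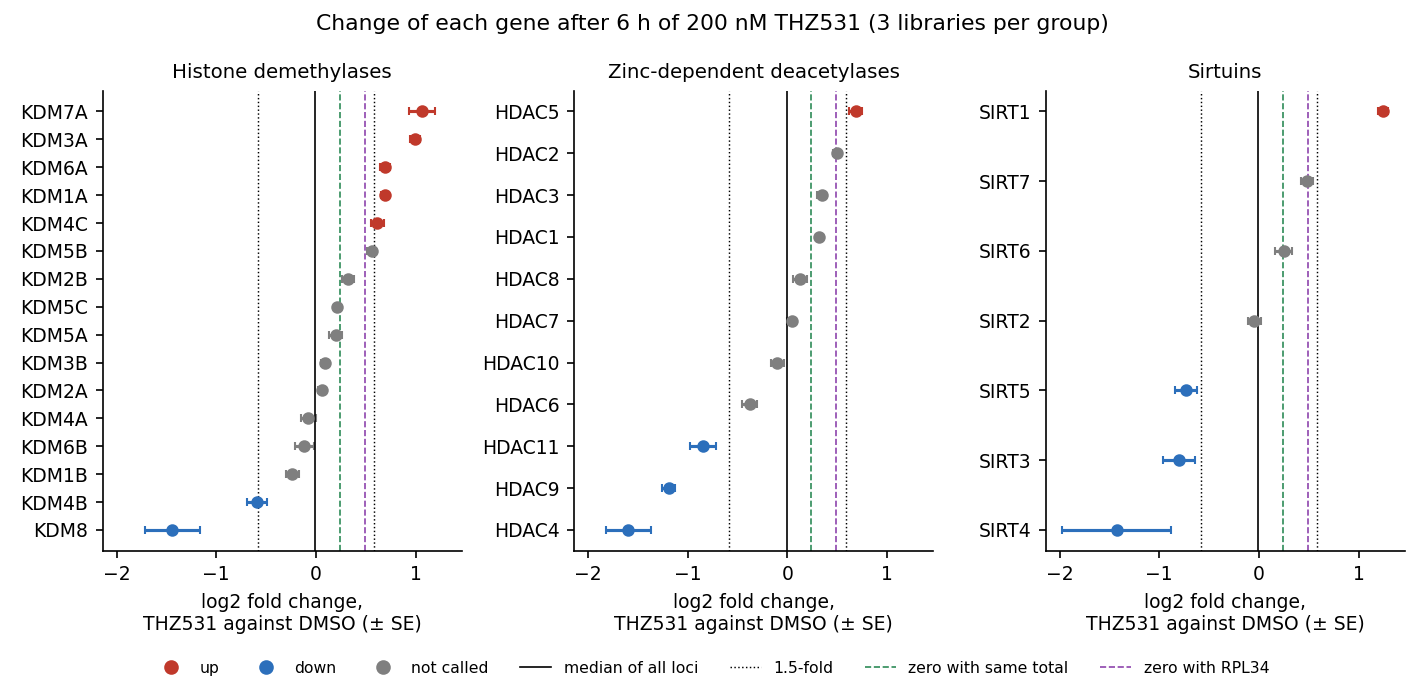
Log2 fold change (THZ531 against DMSO) of every gene with its SE from limma, in 1 panel per family, colored by call (3 libraries per group). Dashed lines mark where zero would fall if libraries were scaled to the same total or to RPL34, and genes to the left of a dashed line lie below zero with that scaling.

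The calls in the upward direction rested on the scaling. When each library was scaled to the same total, all loci shifted by -0.24 on the log2 scale, 3 of the 34 genes increased (SIRT1, KDM7A and KDM3A, against 9.38% of all loci) and 9 decreased (against 32.0% of all loci). When scaled to RPL34 the shift was -0.49, SIRT1 was the only 1 of the 34 that increased (against 6.14% of all loci) and 12 decreased (against 42.8%). All 8 genes called as decreased with the deposited scaling were also called as decreased with both, which lower all loci. HDAC6 was called as decreased in addition with both, and KDM1B, KDM6B and HDAC10 with RPL34. An adjusted p of at most 0.05 at any fold was reached upward by 16 genes (34.6% of all loci) and downward by 10 (34.1% of all loci). The DMSO and THZ531 libraries did not overlap for 18 genes that were higher in THZ531 (36.0% of all loci) and 10 that were lower (35.7%).

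**Figure D2:**
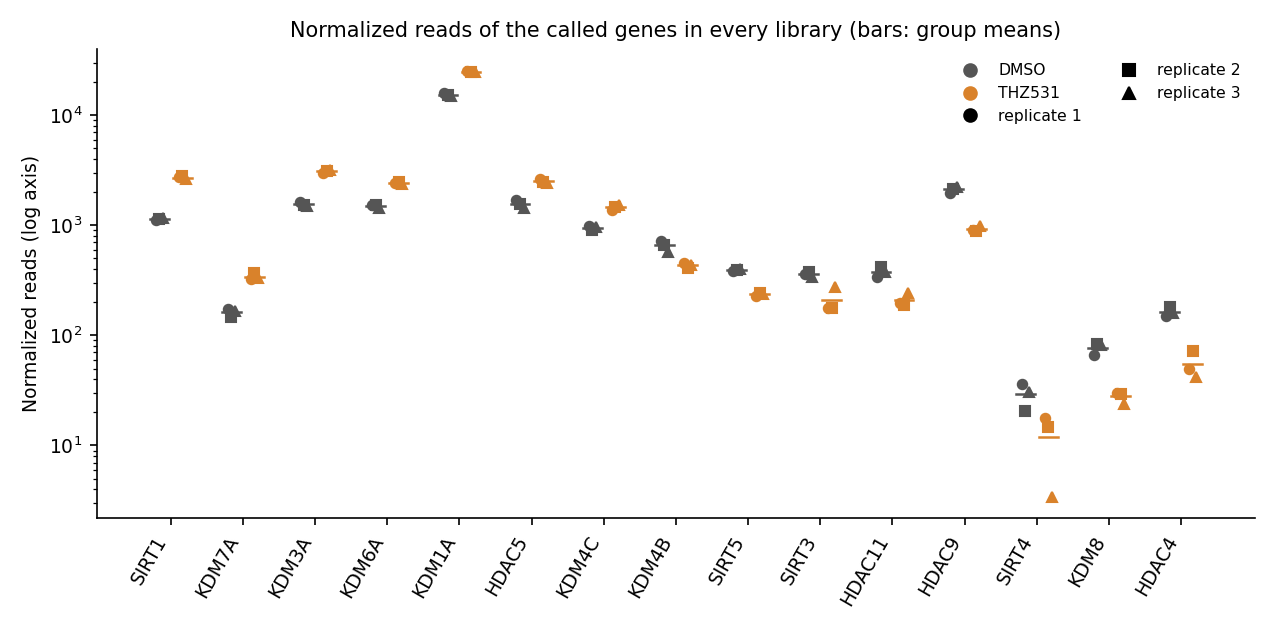
Normalized reads (log axis) of the 15 called genes in each of the 6 libraries, with bars at the group means. The groups do not overlap for any of the 15 genes, which were called in these same libraries. Of all loci, 36.0% are higher and 35.7% lower in THZ531 without overlap. The widest spread is that of SIRT4, whose THZ531 values reach from 3.41 to 17.6.

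Among the flavin-dependent demethylases, KDM1A increased and KDM1B was not called. KDM1A (LSD1, chr1:23019468-23083689, + strand), which acts on mono- and dimethylated H3K4 in the CoREST complex, was the most abundant of the 34 transcripts per length. Its normalized reads were 16105, 15272 and 14943 in DMSO and 25493, 24569 and 24774 in THZ531, with every treated library above every control (log2 fold change 0.69, SE 0.04, limma adjusted p = 1.1e-10). KDM1B (LSD2), its paralog, had 1716 ± 156 normalized reads in DMSO and 1452 ± 44.8 in THZ531 (SD, n = 3) and missed the fold threshold (log2 fold change -0.24, limma adjusted p = 0.0048). KDM1B overlaps DEK on the other strand, which had more reads (17146 normalized reads in DMSO, 18485 in THZ531).

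KDM7A and KDM3A, both H3K9 demethylases, gave the largest increases among the KDM genes. KDM7A (chr7:140084746-140209115, - strand), a PHD finger enzyme acting on H3K9 and H3K27, rose from 173, 147 and 168 normalized reads to 322, 371 and 332 (log2 fold change 1.07, SE 0.13, limma adjusted p = 2.3e-06). It was also the least abundant of the 34 genes per length in DMSO, and KDM7A-DT, the divergent transcript at its start, stayed at 145 in DMSO and 157 in THZ531. KDM3A (chr2:86441319-86492716, + strand), a hypoxia-inducible H3K9 demethylase, rose from 1643, 1528 and 1514 to 3005, 3138 and 3198 (log2 fold change 1.00, SE 0.05, limma adjusted p = 1.4e-10). KDM3B had 4184 ± 144 and 4460 ± 96.1 normalized reads and was not called (log2 fold change 0.09). The KDM2 enzymes, which bind unmethylated CpG and act on H3K36, were not called either, with log2 fold changes of 0.32 for KDM2B and 0.06 for KDM2A. A locus without a symbol on the strand opposite to the KDM2B 3′ end decreased from 218 to 75.2 (log2 fold change -1.53, limma adjusted p = 1.3e-06).

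The KDM4 genes, whose products remove methyl groups from trimethylated H3K9 and H3K36, went in opposite directions. KDM4C (chr9:6716495-7175648, + strand) increased from 984, 913 and 960 normalized reads to 1388, 1471 and 1520 (log2 fold change 0.62, SE 0.06, limma adjusted p = 3.6e-07), just above the threshold, and without DMSO replicate 2 its log2 fold change was 0.58 and it was not called. KDM4B (chr19:4969113-5153598, + strand) decreased from 725, 670 and 578 to 456, 408 and 439 (log2 fold change -0.59, SE 0.10, limma adjusted p = 5.9e-05). The groups stood apart for both genes. KDM4B was just past the threshold as well, and its call was lost without DMSO replicate 1 (-0.52), DMSO replicate 2 (-0.58) or THZ531 replicate 2 (-0.55). KDM4A had 801 ± 16.5 and 762 ± 60.1 normalized reads, and the libraries of both groups overlapped (log2 fold change -0.08).

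Loci without a symbol were also counted within KDM4 introns. The locus in intron 8 of KDM4B (chr19:5078169-5081187, on the sense strand, 699 to 3717 nt from the 5′ splice site of a 4896 nt intron) had 14.3, 18.6 and 22.3 normalized reads in DMSO and 88.2, 83.0 and 71.7 in THZ531 (log2 fold change 2.09, SE 0.31, limma adjusted p = 1.5e-05), and was called as increased with all 4 scalings. This is the locus whose hexamers are printed above. A locus in intron 6 (chr19:5058816-5061828) had 0 reads in all DMSO libraries and 10, 6 and 15 reads in THZ531, a mean of 12.2 normalized reads, which is at least 4.83-fold higher than 3 reads per DMSO library would be; it failed the minimum and was not tested. A locus in intron 10 had means of 6.80 and 1.68 and was not tested. In KDM4C a sense locus in intron 4 (chr9:6834702-6835012) had 1, 6 and 1 reads in DMSO and 11, 16 and 13 in THZ531 and passed the minimum only through its THZ531 libraries, so that a difference was built into its selection and no test is given. No AATAAA was found in that locus. The strand of such loci was read from how identifiers are numbered, a reading that was right for 98.4% of the 23876 loci that could be checked.

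**Figure D3:**
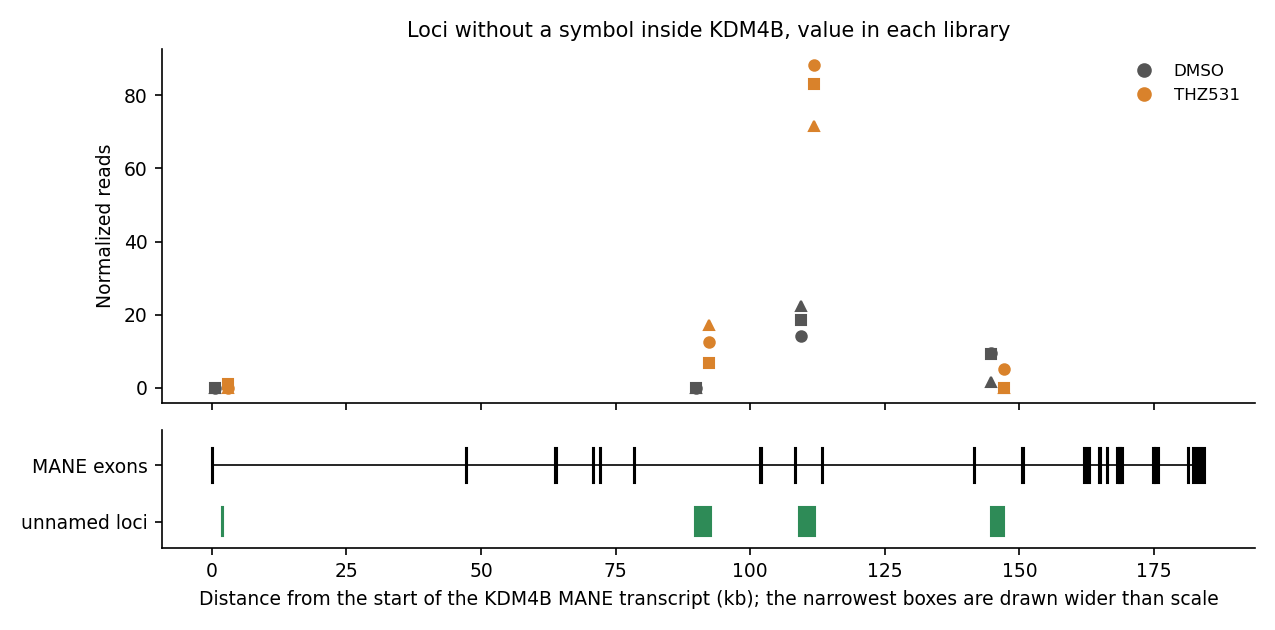
Loci without a symbol inside KDM4B: normalized reads in each library (top; circles, squares and triangles are replicates 1, 2 and 3) above the exons of the MANE transcript and the loci (bottom), by distance in kb from its start. The locus in intron 8 lies between 71.7 and 88.2 in THZ531 and between 14.3 and 22.3 in DMSO.

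In all, 25 loci without a symbol lay inside 14 of the 34 genes. Of these 7 passed the minimum, the KDM4C locus only through THZ531, so that how many were called depends in part on the minimum. A locus on the strand opposite to KDM5B (7.94, 9.28 and 12.8 in DMSO) also needed its THZ531 libraries and was not called. A locus above the minimum in every library was on the strand opposite to SIRT5, touching its last exon (chr6:13614113-13615155). It rose from 31.1 ± 6.41 to 76.5 ± 17.2 (log2 fold change 1.26, limma adjusted p = 0.0011) while SIRT5 itself fell. Below the minimum, sense loci in intron 2 of KDM6A and intron 3 of HDAC5 had means of 0.619 and 3.09 in DMSO and 9.92 and 13.6 in THZ531. The HDAC5 locus had 18, 14 and 2 reads in THZ531, so that its libraries overlapped those of DMSO. Whether such loci are separate transcripts or parts of the gene was not tested.

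KDM5 enzymes act on trimethylated H3K4, and none was called. KDM5B came closest, from 2072 ± 16.8 to 3058 ± 50.8 normalized reads (log2 fold change 0.56, limma adjusted p = 2.3e-08), every THZ531 library being above the controls. KDM5C, an X-linked gene and the gene with the most normalized reads of all 34, had 23963 ± 806 in DMSO and 27737 ± 121 in THZ531 (log2 fold change 0.21). KDM5A had 1772 ± 177 and 2027 ± 69.2 (log2 fold change 0.20). Its 5′ end meets CCDC77 on the other strand, which decreased (log2 fold change -1.46).

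Of the H3K27 demethylases, KDM6A increased and KDM6B was not called. KDM6A (UTX, chrX:44873183-45112779, + strand), a subunit of the KMT2C and KMT2D complexes at enhancers, increased from 1522, 1532 and 1452 normalized reads to 2407, 2493 and 2393 (log2 fold change 0.69, SE 0.05, limma adjusted p = 7.3e-09). KDM6B (JMJD3), the inducible enzyme of the group, had 673 ± 79.6 and 619 ± 43.8, with overlapping groups (log2 fold change -0.11). KDM8 (JMJD5, chr16:27203495-27221768, + strand), a JmjC protein with arginine hydroxylase activity, fell from 66.7, 83.5 and 82.2 to 30.2, 29.6 and 23.9 (log2 fold change -1.44, SE 0.28, limma adjusted p = 2.3e-04). A locus on the strand opposite to KDM8 had means of 20.0 and 2.27 and was not tested.

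Class I HDAC genes, among them catalytic subunits of the nuclear corepressor complexes, were all above zero with the deposited scaling and none was called. Their normalized reads were 12815 ± 490 and 18053 ± 470 for HDAC2 (log2 fold change 0.49, limma adjusted p = 8.1e-09), 2522 ± 67.6 and 3202 ± 74.5 for HDAC3 (0.34), 9203 ± 266 and 11506 ± 434 for HDAC1 (0.32) and 916 ± 68.9 and 999 ± 46.1 for HDAC8 (0.13). For HDAC8 the groups overlapped, whereas for the other 3 they did not. Scaled to RPL34, the changes of HDAC3, HDAC1 and HDAC8 were below zero (-0.15, -0.17 and -0.37) and that of HDAC2 was 0.00. HDAC2-AS2, antisense at the HDAC2 start, had 20.3 ± 1.79 in DMSO and 8.42 ± 5.23 in THZ531, with 2, 11 and 9 reads in the THZ531 libraries. THZ531 replicate 1 was below 10 normalized reads, so that HDAC2-AS2 needed its DMSO libraries to pass the minimum and no test is given.

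Class IIa HDAC proteins shuttle between cytoplasm and nucleus and bind MEF2 factors, with little catalytic activity of their own. HDAC4 (chr2:239048168-239401652, - strand) showed the largest decrease of the 34 genes, from 150, 180 and 160 normalized reads to 49.1, 72.7 and 42.1 (log2 fold change -1.59, SE 0.23, limma adjusted p = 1.2e-05), or 3.02-fold. HDAC9 (chr7:18086825-19002416, + strand) dropped from 1989, 2146 and 2230 to 908, 896 and 982 (log2 fold change -1.19, SE 0.06, limma adjusted p = 1.6e-10). In both genes all treated libraries were below all controls. HDAC5 (chr17:44076753-44123641, - strand) moved in the other direction, from 1684, 1567 and 1440 to 2626, 2461 and 2444 (log2 fold change 0.68, SE 0.06, limma adjusted p = 6.3e-08). HDAC7, the most abundant of the class per length in DMSO, had 9336 ± 665 and 9612 ± 277 with overlapping groups, and its log2 fold change of 0.04 turned to -0.01 without DMSO replicate 3. HDAC4-AS1, a transcript at the HDAC4 start on the other strand, had 12.7, 11.1 and 4.79 in DMSO and 25.2, 36.4 and 20.5 in THZ531. DMSO replicate 3 was below 10, so that HDAC4-AS1 needed its THZ531 libraries to pass the minimum. Neither a test nor a call is given for it with any scaling.

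Among the class IIb enzymes, HDAC6, the tubulin deacetylase, had 1243 ± 124 and 953 ± 43.5 normalized reads (log2 fold change -0.38, limma adjusted p = 4.0e-04) and HDAC10, a polyamine deacetylase, had 1484 ± 74.9 and 1385 ± 92.6 (-0.10). Neither passed the fold threshold with the deposited scaling, although the HDAC6 groups did not overlap. HDAC11 (chr3:13479724-13506416, + strand), the sole member of class IV, which removes fatty acyl groups, was down-regulated from 340, 421 and 375 to 198, 190 and 245 (log2 fold change -0.85, SE 0.13, limma adjusted p = 3.5e-05).

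Of the 3 nuclear sirtuins 1 was called as increased, and the 1 mainly cytoplasmic sirtuin was not called. SIRT1 (chr10:67884656-67918390, + strand), the nuclear deacetylase of p53 and of many transcription factors, showed the largest increase of the 34 genes, from 1125, 1144 and 1167 normalized reads to 2741, 2794 and 2625 (log2 fold change 1.25, SE 0.05, limma adjusted p = 1.2e-11), or 2.37-fold. The other nuclear sirtuins, SIRT7 (2170 ± 179 and 3024 ± 57.8, log2 fold change 0.48) and SIRT6 (474 ± 21.1 and 563 ± 21.1, log2 fold change 0.25), were above zero with the deposited scaling, where every THZ531 library exceeded the controls, and below zero when scaled to RPL34 (-0.01 and -0.24). Neither was called. SIRT2, the mainly cytoplasmic enzyme, had 1393 ± 14.4 and 1352 ± 101 with overlapping groups (log2 fold change -0.05).

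All 3 mitochondrial sirtuins were called as decreased with every scaling, SIRT4 with the limit given below. Of all loci, 23.9% were called as decreased with the deposited scaling, 32.0% with the same total and 42.8% with RPL34. The latter 2 scalings lower all loci. SIRT3 (chr11:215030-236931, - strand), the main deacetylase of the matrix, decreased from 365, 374 and 341 normalized reads to 179, 176 and 278 (log2 fold change -0.80, SE 0.16, limma adjusted p = 3.1e-04), THZ531 replicate 3 being the highest of the treated libraries. SIRT5 (chr6:13574274-13615158, + strand), which removes succinyl and malonyl groups, decreased from 385, 394 and 401 to 230, 244 and 235 (log2 fold change -0.73, SE 0.11, limma adjusted p = 1.8e-05). SIRT4 (chr12:120291780-120313249, + strand), which has little deacetylase activity, was low at 36.5, 20.4 and 30.3 in DMSO and 17.6, 14.8 and 3.41 in THZ531 (log2 fold change -1.43). THZ531 replicate 3 was below 10 normalized reads, so that SIRT4 needed its DMSO libraries to pass the minimum and no p-value is given. Its call was lost without DMSO replicate 1 (-1.25), DMSO replicate 3 (-1.38) or THZ531 replicate 3 (-0.77). The SIRT3 3′ end overlaps RIC8A on the other strand, which fell too (4027 ± 221 to 2146 ± 104, log2 fold change -0.91). The kit marks strand, but the strand setting of the counting is not given in the sources used here, and what overlapping genes contribute to each other was not tested.

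Ratios of related genes within a library do not depend on scaling. Ratios were taken for 7 pairs chosen after their values were seen, and they are a description only. The number of KDM4C reads per KDM4B read was 1.36, 1.36 and 1.66 in DMSO and 3.04, 3.60 and 3.46 in THZ531. KDM1A gave 10.1, 9.24 and 7.89 reads per KDM1B read in DMSO and 17.2, 16.7 and 17.7 in THZ531. KDM3A to KDM3B (0.378, 0.369 and 0.372 against 0.675, 0.688 and 0.732) and KDM6A to KDM6B (1.99, 2.39 and 2.37 against 4.22, 3.94 and 3.65) moved the same way. HDAC5 gave 0.847, 0.730 and 0.646 reads per HDAC9 read in DMSO and 2.89, 2.75 and 2.49 in THZ531. Reads are not corrected for length, and per length HDAC5 was the higher of both in every library, at 5.26 ± 0.47 against 3.84 ± 0.18 RPKM in DMSO and 7.13 ± 0.23 against 1.42 ± 0.076 in THZ531 (SD, n = 3). The HDAC5 to HDAC4 ratio rose 4.92-fold on average (geometric mean) and that of SIRT1 to SIRT3 4.14-fold. The groups did not overlap for any of the 7 pairs, an outcome that the choice of pairs by their values favors.

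**Figure D4:**
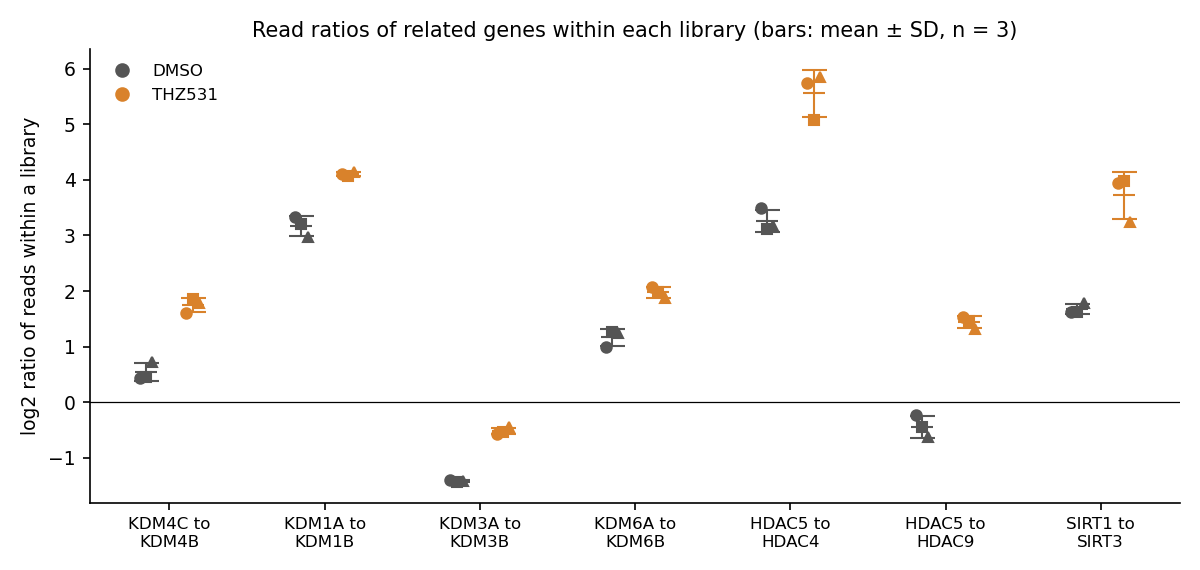
Log2 ratio of reads within each library for 7 pairs of related genes (circles, squares and triangles are replicates 1, 2 and 3; bars are mean ± SD, n = 3). The pairs were chosen after their values were seen. In every pair the THZ531 libraries lie above the DMSO libraries, with a difference of mean log2 ratios of 0.81 for KDM6A to KDM6B and of 2.30 for HDAC5 to HDAC4.

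Expression levels of the 34 genes in DMSO spanned a wide range when given as RPKM computed here over the MANE transcript and the reads on genes. KDM1A was highest at 89.5 ± 4.4 (SD, n = 3), followed by HDAC1 at 77.7 and KDM5C at 73.7, whose libraries overlapped each other. HDAC7 followed at 39.6, and then HDAC2 (23.5), HDAC3 (23.3) and SIRT7 (22.5), which overlapped. KDM2A (16.2), SIRT2 (13.4) and KDM3B (11.1) each stood apart from the gene before it. HDAC10 (10.3) overlapped KDM3B and HDAC8 (9.33), and KDM1B (6.76) stood below them. KDM3A (5.98), HDAC6, SIRT6, HDAC5, KDM2B and SIRT1 (4.98) formed a run in which each overlapped its neighbour. KDM6A (4.41) stood apart on both sides, and KDM5B, KDM4C and HDAC9 (3.99, 3.93 and 3.84) overlapped in turn. From KDM4A (3.19) through KDM5A, HDAC11, SIRT3 and KDM4B to KDM6B (1.79) neighbours again overlapped. SIRT5 (1.54) stood alone, and at the low end KDM8 (0.569), SIRT4 (0.427), HDAC4 (0.345) and KDM7A (0.315) overlapped in turn.

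The 8 decreased genes were among the less expressed. Their levels in DMSO were at most 3.84 RPKM, with a median of 1.82, against 4.98 for the 7 increased genes and 10.3 for the 19 genes not called. Across the 34 genes the Spearman correlation of the level in DMSO with the log2 fold change was 0.42, and with normalized reads in place of the length-scaled level it was 0.44. Over all 17568 loci the latter was 0.068. These points share libraries and depth, and the DMSO value enters both measures. Gene span did not order the changes in a comparable way (Spearman 0.15 over the 34 genes and -0.05 over 13246 genes with a MANE transcript). The median span was 64222 nt for the increased and 33335 nt for the decreased genes, and the decreased genes included both the longest gene, HDAC9 (506668 nt), and SIRT4 (10929 nt).

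**Figure D5:**
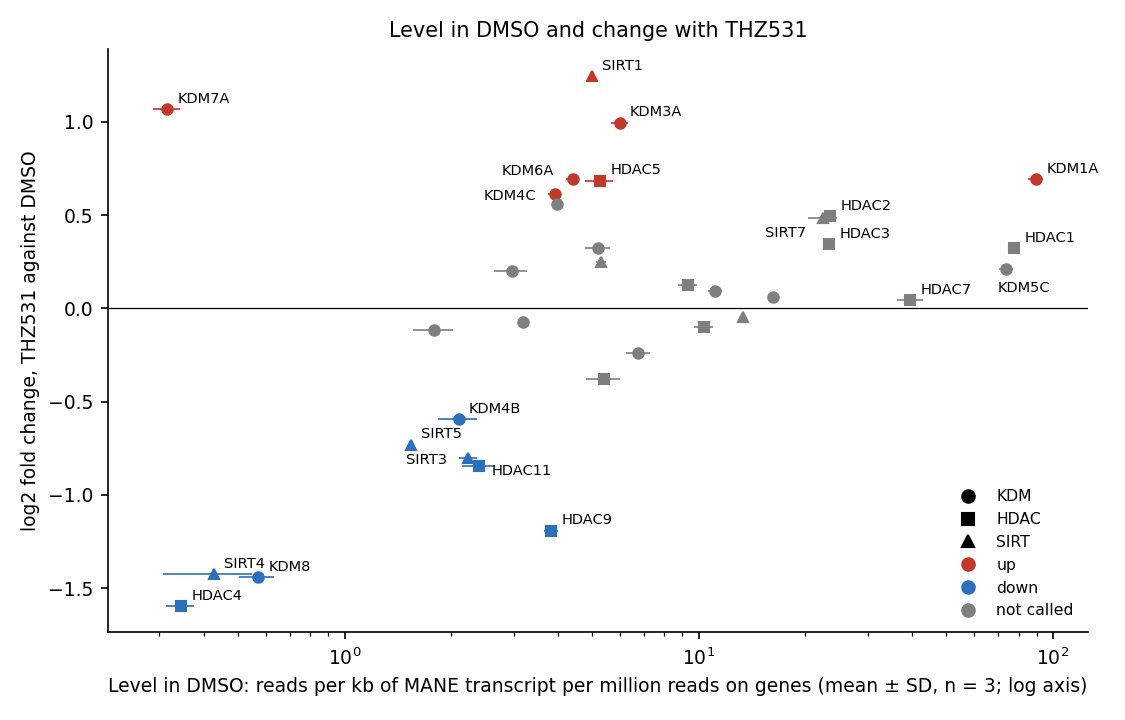
Level in DMSO (RPKM over the MANE transcript, mean ± SD, n = 3, log axis) against log2 fold change for the 34 genes, with shapes for the families and colors for the calls. The decreased genes lie at levels of 3.84 or less, and genes above 6 are increased (KDM1A) or not called.

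Genes that work with or against these enzymes were examined with the same fit, and their shares stand beside 15.7% increased and 23.9% decreased among all loci. Of 14 tested JmjC genes outside the 34, 1 increased (7.14%; JARID2, a PRC2 cofactor, log2 fold change 0.89) and 6 decreased (42.9%), among them RIOX1 (-1.35) and HSPBAP1 (-1.21), with a median of -0.44. Among the 6, chosen after its values were seen, was KDM4D, an intronless relative of KDM4A, KDM4B and KDM4C left out by the rule (107 to 20.1 normalized reads, log2 fold change -2.40). KDM4E was at 0 in all DMSO libraries and in 2 of the THZ531 libraries and was not tested. Of 45 subunits of the CoREST, SIN3, NuRD, NCoR and related corepressor complexes, 9 increased (20.0%) and 10 decreased (22.2%), near the shares among all loci (median 0.27). Both directions occurred within the SIN3 complex, where ING1 (1396 ± 117 to 3433 ± 92.4, log2 fold change 1.30) and ARID4B (1.19) rose while the scaffold SIN3B (586 ± 25.3 to 192 ± 30.6, log2 fold change -1.62) and SAP30L (-1.13) fell.

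Of 15 acetyltransferases, which add the groups that HDAC enzymes remove, 4 increased (26.7%) and 2 decreased (13.3%, median 0.31). KAT7 (log2 fold change 0.88) and CREBBP (0.83) rose, while KAT8, which acts on H4K16, fell (-1.35), as did the joint locus of KAT14 and PET117 (-2.26), in which the genes cannot be told apart. Of 11 methyltransferase genes for H3K9, H3K27 and H3K79, 2 increased (18.2%; EED, 1.02, and EZH2, 0.83) and 3 decreased (27.3%). Among the latter were SETDB2 (-1.39) and EZH1 (-0.92), and the median was 0.07. In this list the genes of the PRC2 complex, which opposes KDM6A, went both ways. EED and EZH2 rose, EZH1 fell and SUZ12 was not called (-0.05). Of 16 tested genes of NAD supply and use, on which sirtuins depend, 2 increased (12.5%; NNMT, 0.67, and NAMPT, 0.66) and 4 decreased (25%, median 0.10). NMNAT1, the nuclear enzyme that makes NAD, dropped from 789, 834 and 782 normalized reads to 115, 147 and 144 (log2 fold change -2.57, SE 0.12, limma adjusted p = 3.2e-11), and NMNAT2 was also lower (-0.61). All these values are with the deposited scaling, and scaled to RPL34 the medians of the 5 lists were below zero (from -0.94 for the JmjC genes to -0.18 for the acetyltransferases).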

How the data were processed

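Libraries were built from polyA RNA with a stranded kit and sequenced in 150 bp paired-end format. The authors mapped reads to hg38 with STAR (version 2.7.5a in the submitters' processing notes), counted them with featureCounts (FAST DB genes) and divided the counts by DESeq2 size factors. The deposited values are this signal, normalized reads per locus, and in each library 100% of the values came out as whole reads within a tolerance of 0.01 once multiplied by its size factor. Two-sided limma (3.58.1, trended variance) was applied to log2(value + 1) over 17568 loci, and p-values were Benjamini-Hochberg adjusted over all of them. A self-test was made on counts simulated with means and dispersions from these libraries, and its outcome is not given here. edgeR (4.0.16), DESeq2 (1.42.0), other pseudocounts, minimums, scalings and left-out libraries were tried as alternatives. Named genes were all 34 genes, the called loci inside them and, in each list of related genes, up to 2 increased and 2 decreased genes with the largest change among called genes whose mean reached 100 and whose libraries separated by treatment. Genes and lists were chosen with earlier results of these data known. Gene models were GENCODE release 44 on hg38, in which all 34 genes were matched. Precision is limited by 3 libraries per group.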

Additional observations from a re-analysis of the deposited data

How the results depend on the processing

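The calls of the 34 genes kept their direction with edgeR, DESeq2, the adjusted p, upper-quartile scaling, no minimum and a pseudocount of 0.1, where 7 genes increased and 8 decreased. Replicate numbers did not pair the libraries (correlations of same-numbered deviations from -0.04 to 0.02), and with a replicate block 7 increased and 8 decreased. Leaving out 1 library at a time gave 6 to 7 increased and 6 to 8 decreased genes, and a median log2 fold change of 0.09 to 0.13. SIRT4 was not called by limma without the trend and was not tested at a minimum of 50, and KDM4B was not called with a pseudocount of 10. At a fold of 2, 2 genes increased (7.70% of all loci did) and 4 decreased (15.3% of all loci did).

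Scaling to the same total left 3 increased genes and a median of -0.13, and scaling to RPL34 left 1 and a median of -0.38. The construction of both settings lowers all loci by the shift given above. Genes above zero with the deposited scaling that turned below it with the same total were KDM5C (-0.031), KDM5A (-0.044), HDAC8 (-0.12), KDM3B (-0.15), KDM2A (-0.18) and HDAC7 (-0.20). Those that turned below zero with RPL34 were SIRT7 (-0.011), HDAC3 (-0.15), HDAC1 (-0.17), KDM2B (-0.17), SIRT6 (-0.24), KDM5C (-0.28), KDM5A (-0.29), HDAC8 (-0.37), KDM3B (-0.40), KDM2A (-0.43) and HDAC7 (-0.45). With 1 library left out HDAC7 was between -0.010 (without DMSO replicate 3) and 0.093. With RPL34 the increased genes numbered 0 of the other JmjC proteins, 2 of the corepressor subunits, 0 of the acetyltransferases, 0 of the methyltransferases and 0 of the NAD genes, and 6 acetyltransferases decreased. With the same total, 3 corepressor subunits, 2 acetyltransferases and 0 NAD genes increased, and 5 acetyltransferases decreased. With 3 libraries per group and SIRT4 near the minimum, changes of the lowest genes are the least certain.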
